A study of Mus musculus with 6 samples.

Results

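The genes that make, load, recapture and degrade the monoamine transmitters were followed in RNA from mouse brain synaptosomes, nerve terminals pinched off from homogenised brain with pieces of the opposite membrane attached. All array probes carrying the name of 1 of 10 genes were taken: Th, Ddc, Dbh and Tph2 for synthesis, Slc18a2 for vesicle loading, Slc6a2, Slc6a3 and Slc6a4 for reuptake, and Maoa and Maob for degradation. The array names 34797 genes in all, and the 10 had 12 of its 55681 probes. Of these, 8 probes, 1 for each of 8 genes, exceeded background clearly (Agilent's well-above-background mark) on 3 or more of 6 arrays and entered the test of 20975 genes; the 4 others were the only probes of Slc6a2 and Slc6a4 and the second probes of Ddc and Slc18a2.

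Synaptosome RNA from 3 knock-in and 3 wild-type samples was labelled with Cy3 and hybridised to one array each. The series title concerns microRNAs that act on FMR1 and their place in FXTAS, a tremor and ataxia of older people who carry a lengthened CGG repeat in that gene. The sources used here do not give the knock-in allele, strain, age, sex or number of mice per sample. Knock-in is the word of the sample descriptions and the design, whereas the genotype field of those samples says knock-out. RNA integrity was 10 for all samples, and the input was 0.2 µg except for knock-in replicate 1, for which 0.0 µg is recorded. Separate animals are not stated for the samples, and p-values here measure only the spread from sample to sample, part or all of which may be technical.

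Dopamine and noradrenaline are made from tyrosine: Th adds the hydroxyl group that makes L-DOPA, Ddc removes its carboxyl group, and Dbh converts dopamine into noradrenaline. Serotonin is made from tryptophan by Tph2 and the same Ddc. Neurons that use these transmitters have their cell bodies mainly in the midbrain, hindbrain and hypothalamus and send long axons through the forebrain, and the olfactory bulb holds dopamine neurons of its own. Maoa and Maob, on the outer membrane of mitochondria, are also made by cells that do not release monoamines.

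Values below are processed signals in scanner units, or "scaled log2 signals", the log2 of the processed signal minus the 75th percentile of the array's log2 signals. A negative scaled value therefore lies under the array's 75th percentile and is not an absence. Those 75th percentiles were 883, 909 and 910 units on the knock-in arrays, and 578, 580 and 823 units on the arrays of wild-type replicates 1, 2 and 3. Slide 1 held the knock-in arrays and wild-type replicate 3, and slide 2 held wild-type replicates 1 and 2. Arrays correlated at 0.981 to 0.994 across genes, 52.9% to 55.7% of spots per array carried the well-above-background mark, and 0 were saturated. Fmr1, the gene the series is about, had scaled log2 signals of 2.08, 2.24 and 2.27 in knock-in, against 1.42, 1.33 and 1.37 in wild type. A level measured in bulk RNA does not separate fewer cells of a type from less RNA per cell.

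Transcription of Th is known to respond to cyclic AMP. The palindrome TGACGTCA, the cyclic-AMP response element, was therefore looked for on both strands together with AAAGGTCA, the element bound by the Nr4a nuclear receptors, of which Nr4a2 is needed for the dopamine neuron fate. RefSeq promoters from 250 bases before to 50 bases after the start (build GRCm38.p6) were listed for 8 of the 10 genes, 9 promoters in all. TGACGTCA, present in 1.79% of the 32851 listed promoters, was in those of Th and Slc18a2. AAAGGTCA, present in 1.51%, was in 1 of the Ddc promoters, on the strand opposite to the gene, where it reads TGACCTTT. The 30 bases around each match are shown because these are the 3 matches found, with the motif in capitals and positions counted from the start site; the presence of the letters is a description and shows no binding. The Th stretch is chr7:142900022-142900051 (minus strand, motif from -45 to -38), the Slc18a2 stretch is chr19:59260863-59260892 (plus strand, motif from -4 to 4) and the Ddc stretch is chr11:11898199-11898228 (minus strand, motif from -73 to -66).
Th promoter: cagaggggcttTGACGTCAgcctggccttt
Slc18a2 promoter: agcgctgtccgTGACGTCAgagccggactg
Ddc promoter: gctacacgcctTGACCTTTataccagcaga

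Across the array 2 of 20975 genes, or 0.00954%, passed an adjusted p of 0.05 (limma, Benjamini-Hochberg), and none of the 8 tested monoamine genes did. An unadjusted p under 0.05 was reached by 2276 genes in all, and by 2 of the 8 monoamine genes, Maoa and, with a test that its filter conditions, Tph2. The knock-in value was higher for 7 of the 8 and lower for 1, with a median difference of 0.09 on the log2 scale beside a median of -0.05 over all genes. The count of 7 was 4 without knock-in replicate 1 or without wild-type replicate 3, and 5 without knock-in replicate 2 or with normexp background correction. These counts and the median include Tph2, which passed the filter only through the knock-in arrays, and cover the tested genes, not all 10. For 1 gene, Tph2, each of the 3 knock-in arrays lay above each of the 3 wild-type arrays, which held for 7.87% of all genes. For 1 gene, Maoa, all 3 lay below, which held for 12.5% of all genes. The 2 genes without group overlap are a serotonin-synthesis enzyme and a monoamine-degrading enzyme.

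**Figure D1:**
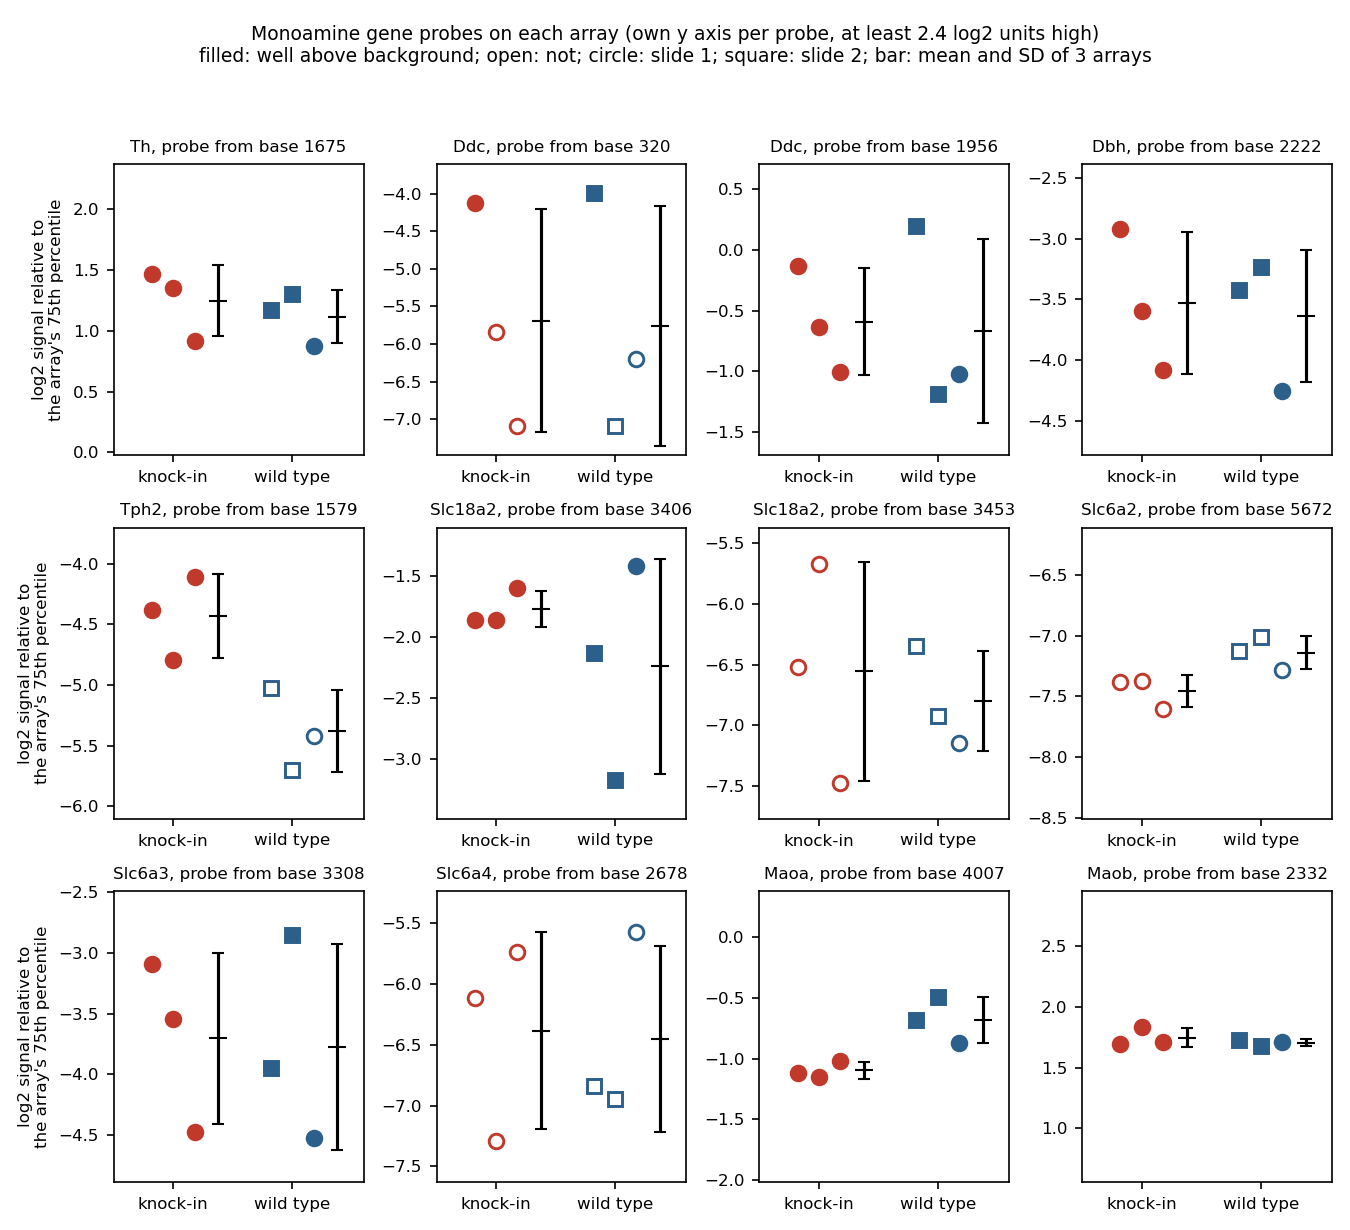
Scaled log2 signal of each of the 12 monoamine probes on each array, knock-in left of wild type, with an own y axis per probe; points are arrays, filled where well above background and open where not, circles for slide 1 and squares for slide 2, and bars are the mean and SD of 3 arrays. The groups are apart for Tph2, filled on the 3 knock-in arrays and open on the 3 wild-type arrays, and for Maoa, and also for Slc6a2, which is open on all 6 arrays. The Slc6a2 signals overlapped before scaling, after quantile normalization and in the authors' value table, but not after normexp.

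Th, the rate-limiting enzyme of dopamine and noradrenaline synthesis, was read by a probe from base 1675 of its transcript (mm9 chr7:150078703-150078762, minus strand). Its processed signals were 2451, 2327 and 1717 on knock-in arrays 1, 2 and 3, and 1302, 1432 and 1510 on wild-type arrays 1, 2 and 3. Before scaling, every knock-in array was above every wild-type array. On the scaled log2 scale the knock-in values were 1.47, 1.36 and 0.92 and the wild-type values 1.17, 1.30 and 0.88. After scaling the groups overlapped, with replicate 3 the lowest in both. The difference was 0.13 (SE 0.19, 95% interval -0.32 to 0.58, limma adjusted p = 0.763). It was 0.37 with slide as a block, a comparison with wild-type replicate 3 alone.

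Ddc, the decarboxylase shared by the catecholamine and serotonin pathways, had 2 probes, both on the minus strand of chromosome 11 in mm9. The probe from base 1956 (chr11:11714106-11714165) gave 807, 587 and 453 units on the knock-in arrays, and 665, 256 and 406 units on the wild-type arrays. The highest array of each group was replicate 1, and the groups overlapped. Its scaled difference was 0.08 (SE 0.41, interval -0.90 to 1.06, limma adjusted p = 0.940), and 0.43 with slide as a block, against wild-type replicate 3 alone. The probe from base 320 (chr11:11776262-11776321) was well above background on knock-in replicate 1 and wild-type replicate 1 alone, and was not tested. It gave 50.4, 15.9 and 6.66 units on the knock-in arrays and 36.3, 4.27 and 11.2 units on the wild-type arrays. Although 62096 bases of genome lie between them, both Ddc probes had replicate 1 as the highest array of each group.

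Dbh, the enzyme of noradrenaline neurons, was read on mm9 chr2:27038665-27038724 (plus strand, from base 2222 of the transcript) and was well above background on all 6 arrays. The knock-in arrays gave 117, 75.2 and 53.7 units, and the wild-type arrays 54.1, 61.7 and 43.2 units. Knock-in replicate 1 stood highest and wild-type replicate 3 lowest, with overlap in between. The scaled difference was 0.10 (SE 0.37, interval -0.79 to 1.00, limma adjusted p = 0.912), and 0.72 with slide as a block, against wild-type replicate 3 alone.

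Tph2, the neuronal enzyme that starts serotonin synthesis, was read on mm9 chr10:114516684-114516743 (minus strand, from base 1579 of the transcript). It gave 42.3, 32.7 and 52.9 units on the knock-in arrays, where it was well above background on all 3, and 17.8, 11.2 and 19.2 units on the wild-type arrays, where it was well above background on 0. It entered the test through the knock-in arrays alone, so its p-values are no independent sign of a difference. The scaled means were -4.43 ± 0.35 in knock-in and -5.38 ± 0.34 in wild type (SD, n = 3 each), and the groups did not overlap. The measured means differed by 0.95, with an adjusted p of 0.397 in limma. The wild-type level is only bounded, so each wild-type value under its array's lowest signal well above background was raised to that signal. The fold was then 1.55 on this scale. It is no lower limit, since the next 2 processings gave smaller differences. With normexp background correction of the raw signals the difference was 0.002 and the groups overlapped. In the authors' deposited value table it was 0.52, again with overlap. Blocking by slide, which sets the knock-in arrays against wild-type replicate 3, gave 0.99 (limma adjusted p = 0.973).

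Slc18a2, the vesicular transporter that fills synaptic vesicles with dopamine, noradrenaline and serotonin, had 2 probes that overlap by 13 bases on the plus strand of mm9 chromosome 19. The last 30 bases of the probe from base 3406 (chr19:59370106-59370165) and the first 30 of the probe from base 3453 (chr19:59370153-59370212) are shown because neighbouring stretches of one transcript gave very different detection, with the shared bases in capitals. The shown stretches are chr19:59370136-59370165 and chr19:59370153-59370182.
Slc18a2 probe from base 3406, end: gatcagcaaaggcatgcCTGTTACTGCTCT
Slc18a2 probe from base 3453, start: CTGTTACTGCTCTccaaagaaaaaagaaaa

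The probe from base 3406 was well above background on all 6 arrays, and the one from base 3453 on 0. Their GC contents were 43.33% and 35%, and their longest runs of A were 5 and 6 bases. The probe from base 3406 gave 244, 251 and 301 units on the knock-in arrays, and 132, 64.1 and 308 units on the wild-type arrays. The knock-in arrays were close to each other, while the wild-type arrays split by slide: replicates 1 and 2 on slide 2 were lower than every knock-in array, and replicate 3 on slide 1 was higher than every one. The scaled difference over all arrays was 0.47 (SE 0.42, interval -0.53 to 1.47, limma adjusted p = 0.638). Blocking by slide gave -0.35 (adjusted p = 0.973), a comparison with wild-type replicate 3 alone. Leaving out wild-type replicate 2 gave 0.003, and leaving out wild-type replicate 3 gave 0.88. The other probe lay between 5.13 and 17.9 units on the knock-in arrays and between 4.79 and 7.13 units on the wild-type arrays.

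Slc6a3, the dopamine reuptake transporter, was read on mm9 chr13:73715973-73716032 (plus strand, from base 3308 of the transcript). It gave 104, 77.9 and 41.0 units on the knock-in arrays, and 37.5, 80.2 and 35.8 units on the wild-type arrays. It was well above background on all 6, with knock-in replicate 1 and wild-type replicate 2 the highest scaled values of their groups. The groups overlapped, and the difference was 0.07 (SE 0.51, interval -1.15 to 1.29, limma adjusted p = 0.957). It was 0.82 with slide as a block, against wild-type replicate 3 alone.

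The noradrenaline transporter Slc6a2 (mm9 chr8:95525166-95525225, plus strand, from base 5672) was well above background on 0 of 6 arrays, with 5.29, 5.49 and 4.68 units in knock-in, against 4.14, 4.48 and 5.28 units in wild type. The serotonin transporter Slc6a4 (mm9 chr11:76845777-76845836, plus strand, from base 2678) was also well above background on 0, with 12.7, 5.79 and 17.1 units in knock-in, against 5.05, 4.70 and 17.3 units in wild type. Neither was tested, and no fold is given between values that are both at background.

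Maoa, the monoamine oxidase that prefers serotonin and noradrenaline, was read on mm9 chrX:16264785-16264844 (plus strand, from base 4007). Its processed signals were 407, 410 and 450 units on the knock-in arrays, and 360, 414 and 451 units on the wild-type arrays, which overlapped. Scaled to each array's 75th percentile the knock-in values were -1.12, -1.15 and -1.02, and the wild-type values -0.68, -0.49 and -0.87. The scaled groups did not overlap, with means of -1.09 ± 0.07 in knock-in and -0.68 ± 0.19 in wild type (SD, n = 3 each). The fitted difference was -0.41 (SE 0.13, interval -0.72 to -0.11), a ratio of knock-in over wild type of 0.750. Its unadjusted p was 0.0147 and its adjusted p 0.414 in limma, and the exact permutation p was 0.1, the smallest that 3 against 3 arrays allow. The knock-in arrays also lay below the wild-type arrays after quantile normalization, after normexp and in the authors' deposited value table. With slide as a block, which leaves wild-type replicate 3 as the only comparator, the difference was -0.23 (limma adjusted p = 0.973).

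Maob, which prefers phenylethylamine and is abundant in astrocytes and serotonin neurons, lies beside Maoa on chromosome X in the opposite orientation, and the probes are separated by 21582 bases. Its probe (mm9 chrX:16286427-16286486, minus strand, from base 2332) gave 2859, 3242 and 2981 units on the knock-in arrays, and 1920, 1854 and 2698 units on the wild-type arrays. The scaled values were 1.69, 1.84 and 1.71 in knock-in, against 1.73, 1.68 and 1.71 in wild type. The scaled groups overlapped within a range of 0.16, the narrowest of the 8 tested members, and the difference was 0.04 (SE 0.09, interval -0.18 to 0.26, limma adjusted p = 0.857). Xist, made from the inactive X chromosome of females, was well above background on 0 arrays. The Y-linked Ddx3y and Eif2s3y were well above background on all 6, 3 in each group, and Uty and Kdm5d on at most 1 array of each group. Eif2s3y was 0.26 lower in knock-in without overlap (SE 0.11, limma adjusted p = 0.460), and Ddx3y differed by 0.08 with overlap.

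**Figure D2:**
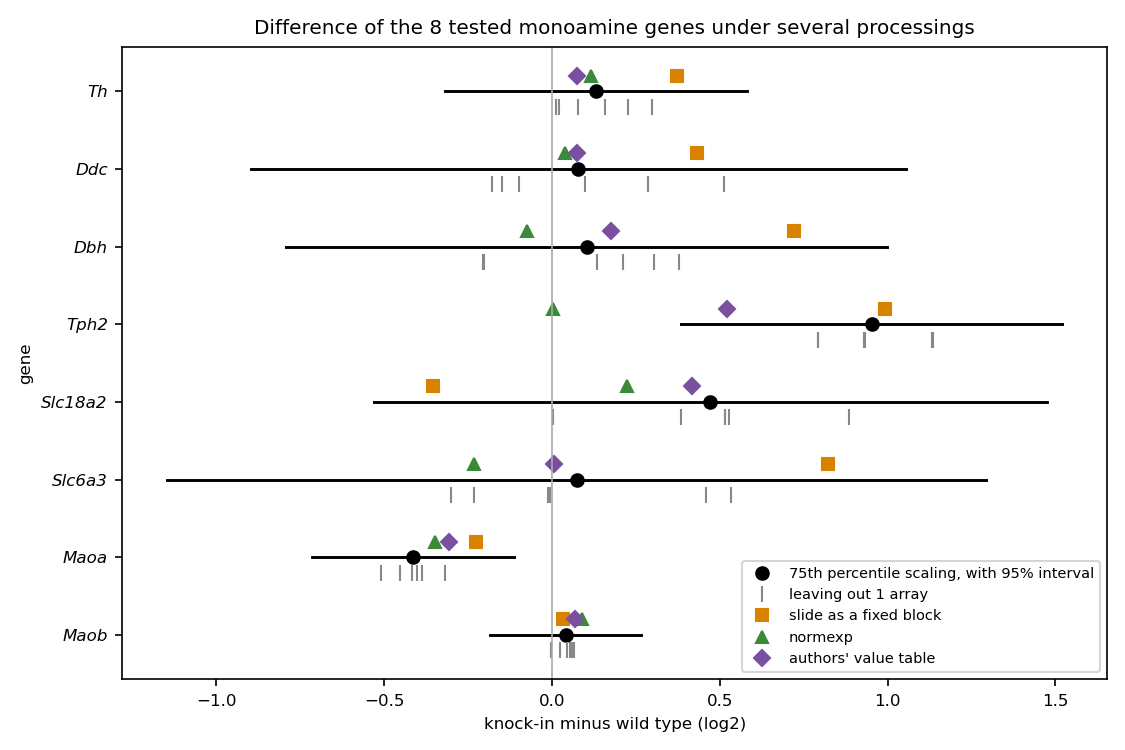
Knock-in minus wild-type difference in log2 units for the 8 tested monoamine genes; black points carry the 95% interval of the limma fit, grey ticks leave out 1 array each, and coloured symbols show the slide block, normexp and the authors' value table. The differences of Maoa stay between -0.51 and -0.23, those of Tph2 run from 0.002 to 1.14, and those of Slc18a2 cross 0.

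Array by array, Th, Dbh and Slc6a3 followed one pattern: their scaled values were lowest on replicate 3 of both groups. Over the 6 arrays Pearson's r was 0.92 between Dbh and Th (rho 0.83), 0.91 between Slc6a3 and Th (rho 0.83) and 0.90 between Dbh and Slc6a3 (rho 0.89). These are 3 of 28 pairs, with exact permutation p of 0.0125, 0.025 and 0.0264 and a Benjamini-Hochberg adjusted p of 0.246 each; the rho values had exact p of 0.0583, 0.0583 and 0.0333, and 0.544 each after adjustment. Without the 2 arrays farthest from the median of the gene named first, r over the 4 left was 0.80, 0.99 and 0.86. No correlation was computed within slides, which hold 4 and 2 arrays.

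The olfactory bulb markers that were tested, Doc2g, Cdhr1, Sp8 and Nmb, are 4 of 6 listed, and Eomes and Tbx21 were well above background on at most 1 array of each group. Their mean deviation from the average of the 6 arrays was 0.16, 0.42 and -0.54 on knock-in arrays, and -0.10, 0.59 and -0.53 on wild-type arrays. It was thus lowest on replicate 3 of both groups too, like Th, Dbh and Slc6a3. Of the single markers, Sp8 did not share this order: it was highest on replicate 3 among the knock-in arrays and lowest on replicate 1 among the wild-type arrays. The r of the marker mean was 0.93 with Slc6a3 and 0.86 with Th. Among 168 pairs of a member and a list, the exact permutation p was 0.0194 and 0.0417, and both were above 0.5 after adjustment, at 0.533 and 0.539. The r with Th was 0.33 without the 2 arrays farthest from the Th median. Other list means also ran alongside these genes. The r was 0.95 between Slc6a3 and the mean of 4 nuclear-retained RNAs, Malat1, Neat1, Meg3 and Snhg11 (rho 1, exact permutation p of 0.00139, the smallest of the 168, adjusted 0.233). Singly, Snhg11 rose from knock-in replicate 1 to 3 while Slc6a3 fell. Neat1 was lowest on wild-type replicate 2, where Slc6a3 was highest. Between Th and the mean of the 7 tetrahydrobiopterin genes r was 0.84 (rho 0.94, exact permutation p of 0.0389, adjusted 0.539). The part of these markers in the monoamine values was not tested.

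Ddc followed a different pattern, high on replicate 1 of both groups. The 17 striatum markers, among them Drd1, Drd2, Adora2a and Penk, had mean deviations of 1.80, 0.41 and -0.93 on the knock-in arrays, and 1.29, -1.27 and -1.30 on the wild-type arrays. The 7 tested of 12 choroid plexus markers had 0.66, 0.67 and -0.51 on the knock-in arrays, and 0.92, -0.88 and -0.86 on the wild-type arrays. Of the single choroid plexus markers, Kl, Clic6 and Otx2 were highest on replicate 1 of both groups. Ttr and Folr1 were instead lowest on replicate 1 among the knock-in arrays, where Ddc was highest. The r of Ddc was 0.94 with the striatum mean and 0.91 with the choroid plexus mean (exact permutation p of 0.0125 and 0.0222, adjusted p of 0.42 and 0.533 over the 168 pairs). With the mean of 11 nerve-terminal genes it was -0.97 (exact permutation p of 0.00278, adjusted 0.233), and that mean varied only between -0.09 and 0.08. The nerve-terminal genes did not share one order. Syn1 and Snap25 were lowest on replicate 1 of both groups, while Gad1 and Gad2 were highest on it, like Ddc. Ddc also had an r of 0.92 with 6 dopamine-neuron genes, 0.93 with 4 dopamine receptors, of which Drd1 and Drd2 are also in the striatum list, and 0.90 with 11 serotonin receptors (exact permutation p of 0.00833, 0.0125 and 0.0333, adjusted 0.42, 0.42 and 0.539). Without the 2 arrays farthest from the Ddc median these became 0.68, 0.87 and -0.02. The dopamine-neuron mean is partly read at background. Its gene Slc10a4 had -1.72, -4.77 and -7.39 in knock-in, against -1.92, -6.90 and -7.18 in wild type. Slc10a4 exceeded background clearly on only 2 knock-in arrays and 1 wild-type array. The Ret value on knock-in replicate 1, -7.24, was also under the lowest such signal there, -5.27. Like Slc10a4, Nr4a2 and Sncg were highest on replicate 1 of both groups. Chrna6 was lowest on it, and Pitx3 was highest on replicate 3. The array that was high in Ddc was thus also high in the mean of the striatum markers within each group. The part of these markers in the Ddc values was not tested.

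**Figure D3:**
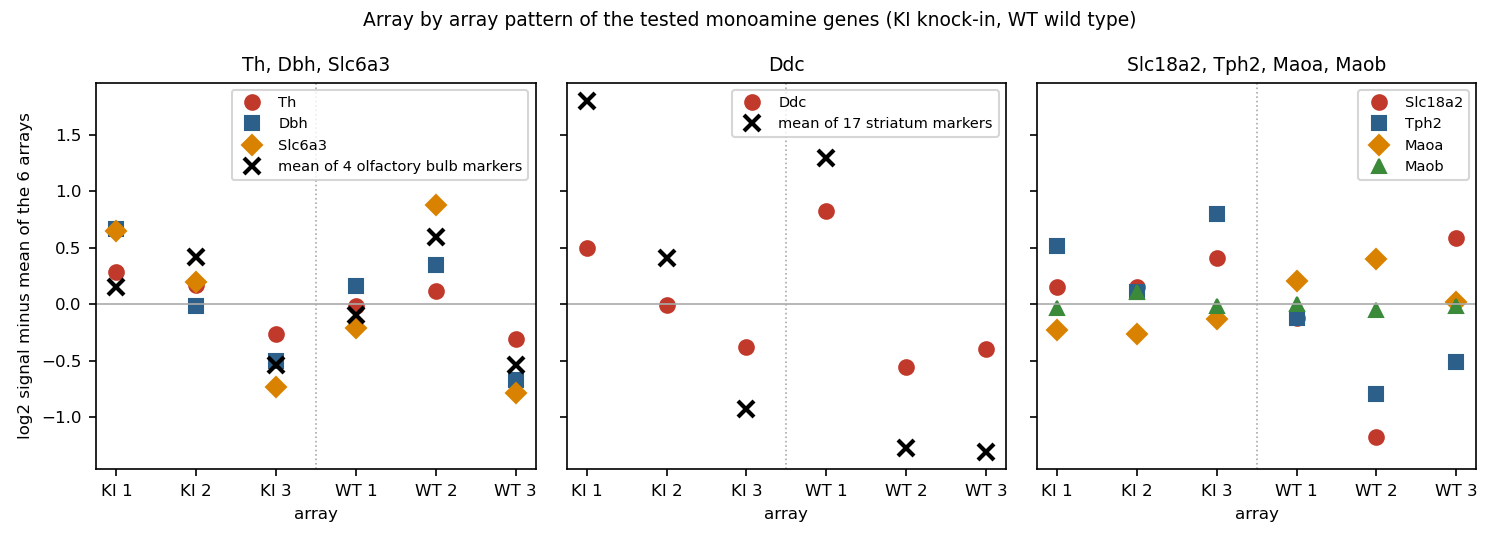
Scaled log2 signal of the tested monoamine genes minus their own mean over the 6 arrays, with the knock-in arrays left of the wild-type arrays; crosses are the mean deviation of the olfactory bulb markers (left panel) and the striatum markers (middle panel). Th, Dbh, Slc6a3 and the mean of the olfactory bulb markers are lowest on replicate 3 of both groups, and Ddc is highest with the mean of the striatum markers on replicate 1 of both groups.

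Genes that define the monoamine neurons themselves were only partly detected. Of 9 dopamine-neuron genes, 6 were tested, and the transcription factors Lmx1a, Foxa1 and Foxa2 were well above background on 0 arrays. Nr4a2, the nuclear receptor needed for the dopamine fate and also induced by activity in other neurons, was 0.48 higher in knock-in (SE 0.15, limma adjusted p = 0.416) without overlap between groups. Ret, the receptor for GDNF-family factors, had knock-in values of -7.24, -4.83 and -4.60 and wild-type values of -3.10, -3.87 and -4.02. It was well above background on 2 knock-in and 3 wild-type arrays, and the value of -7.24 lies under the lowest signal well above background on that array, -5.27, so no size is given to the difference (limma adjusted p = 0.439). Pitx3, another dopamine-neuron transcription factor, differed by -0.26 (SE 0.18, adjusted p = 0.563). Of the 4 serotonin-neuron genes, the transcription factors Fev and Lmx1b were tested. Lmx1b, well above background on all 6 arrays, differed by -0.35 (SE 0.17, adjusted p = 0.492), while Fev was well above background on 1 knock-in and 2 wild-type arrays and no direction is given for it (adjusted p = 0.720). Among the noradrenaline-neuron genes, the transcription factor Phox2a was well above background on 0 arrays. The transcription factor Tfap2b, well above background on 3 knock-in and 2 wild-type arrays, had an adjusted p of 0.574, and the neuropeptide Gal, well above on all 6, differed by 0.01 (SE 0.09, adjusted p = 0.975). Of 12 genes of midbrain and hindbrain, 7 were well above background on 0 arrays, En1 and 4 Hox genes among them.

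Tetrahydrobiopterin, the cofactor that Th and Tph2 both need, had 7 listed genes for its synthesis, recycling, regulation and use, all tested, of which 0 passed the adjusted threshold. The knock-in value was higher for 5 and lower for 2, with a median difference of 0.18 beside -0.05 over all genes. Gch1, the rate-limiting enzyme of its synthesis, had scaled values of -3.33, -3.38 and -3.55 in knock-in, against -3.91, -3.72 and -4.03 in wild type. All knock-in arrays were above all wild-type arrays, by 0.47 on average (SE 0.12, limma adjusted p = 0.400). Qdpr, which regenerates the cofactor, was 0.33 higher without overlap (SE 0.13, adjusted p = 0.449). Spr, which completes the synthesis, was 0.44 lower without overlap (SE 0.18, adjusted p = 0.455), with wild-type replicate 2 at 3.07 and the other wild-type arrays at 2.47 and 2.50. Differences of the others were 0.18 for Pts, which acts after Gch1, 0.22 for the Gch1 regulator Gchfr, -0.06 for Pcbd1, which acts in recycling, and 0.02 for the co-chaperone Dnajc12. Their groups overlapped.

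The remaining synthesis enzymes were Hdc for histamine, Tph1 for serotonin outside neurons and Pnmt for adrenaline, with differences of 0.26, -0.03 and -0.01, all overlapping. Of 9 other clearance genes 7 were tested. The low-affinity transporter Slc29a4 had a difference of -0.05. The organic cation transporter Slc22a2 exceeded background clearly on 2 knock-in arrays and 1 wild-type array, so no size is given to its difference (limma adjusted p = 0.568); its values ranged from -5.98 to -3.70 in knock-in and from -6.45 to -4.83 in wild type. Slc18a1 and Slc22a3 did not pass the filter. In this group 0 genes passed the test and 0 had groups without overlap, beside 7.87% above and 12.5% below over all genes.

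Among receptors, 0 of 4 tested dopamine, 0 of 11 tested serotonin and 0 of 9 tested adrenergic receptors passed the adjusted threshold. Drd1 and Drd2 are also striatum markers. Drd1 was 0.89 higher in knock-in (SE 0.84, limma adjusted p = 0.660). Drd2, clearly over background on 3 knock-in arrays and 1 wild-type array, had an adjusted p of 0.665, and its wild-type level is partly at background. It had scaled values of -0.80, -2.54 and -4.34 in knock-in, against -1.28, -4.88 and -5.62 in wild type, so replicate 1 was highest in both groups. Htr2a, the main excitatory serotonin receptor of cortex, was 0.89 lower (SE 0.31, adjusted p = 0.433). Its values were 0.35, 0.24 and 0.59 in knock-in, all below the wild-type values of 1.23, 1.95 and 0.67. Htr1f, a serotonin receptor that inhibits adenylyl cyclase, was 0.36 lower without overlap (SE 0.17, adjusted p = 0.481). Adrb3, a beta-adrenergic receptor, was 0.67 lower without overlap (SE 0.14, unadjusted p = 0.00283, adjusted p = 0.389). All knock-in arrays lay below all wild-type arrays for 12.5% of all genes.

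**Figure D4:**
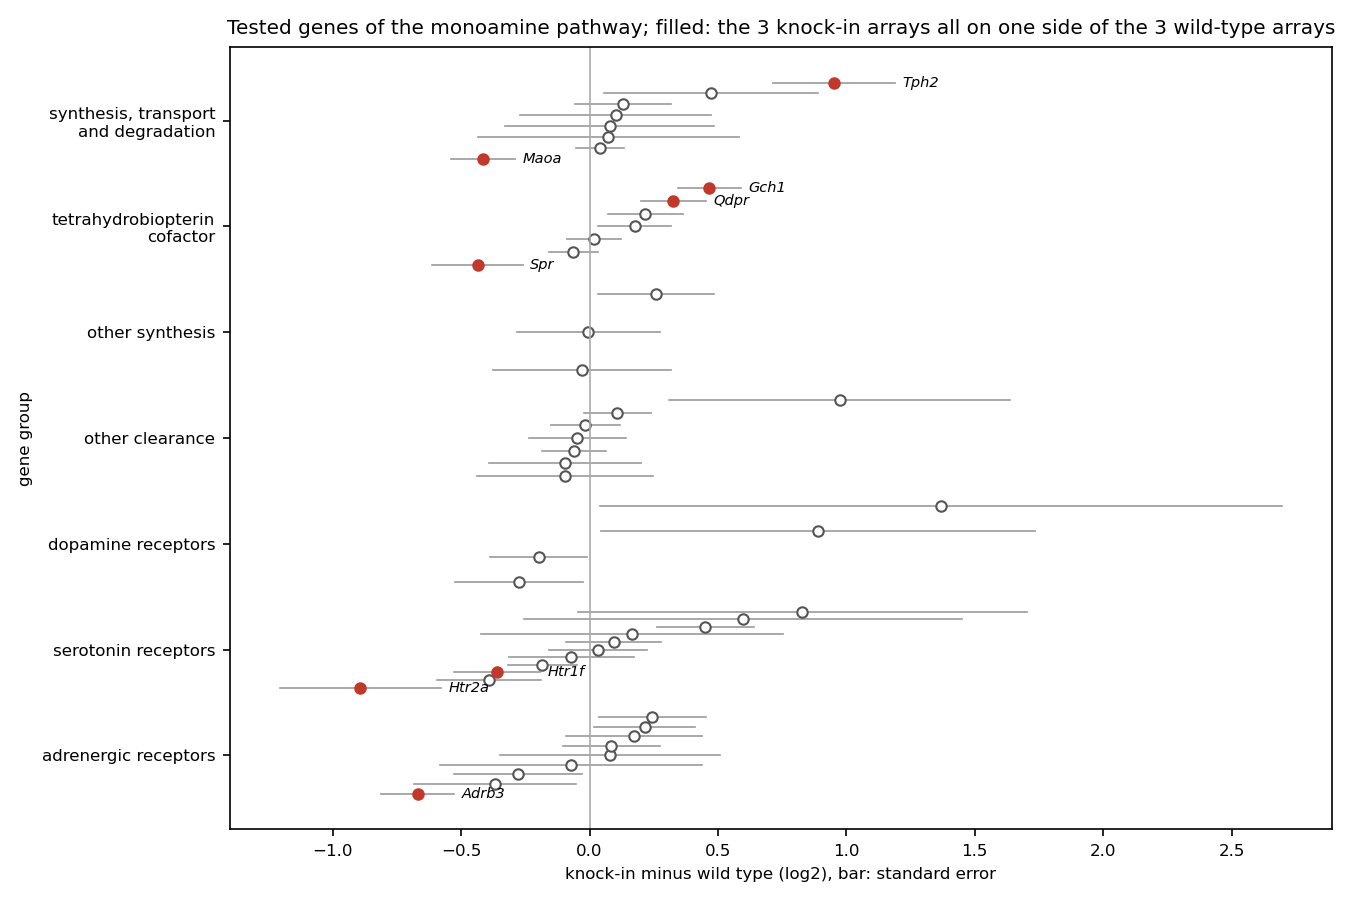
Knock-in minus wild-type difference in log2 units with its standard error for the tested genes of 7 groups of the monoamine pathway; red filled points are genes whose knock-in arrays all lie on one side of the wild-type arrays. The filled points above 0 are Tph2, Gch1 and Qdpr, and those below 0 are Maoa, Spr, Htr1f, Htr2a and Adrb3. Tph2 passed the filter only through the knock-in arrays, and its groups overlapped with normexp. Over all genes tested, 7.87% had all knock-in arrays above and 12.5% had all below. Of the genes shown 0 passed the adjusted threshold.

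The genes whose pattern over the 6 arrays was most like that of a member were listed for the 3 tested members with the largest spread. For Slc6a3 they were Clec4n, the adrenaline enzyme Pnmt, the sodium channel subunit Scn3b and Mynn, at r of 0.998 to 0.982. For Tph2 they were the cytokine receptor subunit Csf2rb, the lectin Clec7a, thromboxane synthase Tbxas1 and Zfp831, at r of 0.979 to 0.971. For Slc18a2 they were BC031181, Actn1, the histamine-methylating enzyme Hnmt and a transcript with a placeholder name, at r of 0.999 to 0.997. With 6 arrays such values are common: 216, 66 and 578 of the genes tested had r over 0.9 with Slc6a3, Tph2 and Slc18a2, in that order.

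The polyadenylation hexamer AATAAA lay within 2 of the 12 monoamine probes, that of Maoa and the Ddc probe from base 1956, against 10.06% of the 55681 probes on the array. No annotation of build mm9 was used here to assign probes to coding or untranslated exons.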

How the data were processed

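Intensities on a linear scale were deposited by the authors for 6 one-colour Agilent arrays, read with Feature Extraction 10.7.3.1 per the file headers; the processed intensity is background-subtracted and not normalized between arrays. The deposited value table, in log2 units, followed the raw median intensity of each array in rank (Spearman 1) with column medians of 6.77 to 6.78; the sources used here do not say how its columns were brought together, and it served as an alternative.

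Control spots were left out, which left 59305 spots per array, and spots marked as outliers were left out unless all spots of a probe were so marked. The log2 processed signal minus the array's 75th percentile was averaged per probe. Probes well above background on at least 3 of 6 arrays were kept (29318), and each gene was represented by its kept probe of highest mean. Names came through RefSeq (GRCm38.p6) for 27235 probes by accession, 3581 by symbol and 565 by older symbol, and otherwise from the files; probe coordinates come from the array's own annotation (mm9).

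The group difference was fitted in R 4.3.3 with limma 3.58.1 (lmFit, eBayes, two-sided, Benjamini-Hochberg over 20975 genes, threshold 0.05), tested on simulated data. Single values had an exact two-sided permutation test over arrays. The number of arrays limits the precision. The genes named were all 10 members, up to 3 of smallest p per list, all genes of the short pathway lists, Fmr1, and 4 most alike to each of the 3 most variable members. Further genes of a list are named where they show how it is made up or where its genes differ. Members and lists were chosen with earlier results of these data known. Alternatives changed background correction, normalization, filter, probe choice, slide, replicate block, moderation and each array in turn. Same-numbered samples of the 2 groups correlated at 0.40, -0.02 and 0.25 in their deviations from group means, against -0.40 to 0.15 for the other combinations. The labels name no pairs, and the main fit used none. Whether the numbers mark pairs is not settled here. With the replicate number as a block the SE fell from 0.41 to 0.20 for Ddc, from 0.37 to 0.19 for Dbh and from 0.19 to 0.11 for Th. It rose slightly for Maoa and Maob. Results for a few listed genes are not reported here.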

Additional observations from a re-analysis of the deposited data

How the results depend on the processing

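The count of 2 genes past the threshold over the whole array moved under most settings, while the count of monoamine genes past it stayed at 0 under all 19 alternatives. Over all genes it was 1 with normexp, 5 with the median of detected probes, the mean of all kept probes, slide as a random block or slide 1 only, 6 with an intensity trend and robust moderation, and 7 with slide as a fixed block. It was 0 with the authors' value table (2289 genes at an unadjusted limma p under 0.05), with no filter (3490) and with a filter that asks for all 6 arrays (2250). Leaving out each array in turn gave 0 to 3 genes, with 0 without wild-type replicate 1 (2724 at an unadjusted p under 0.05) or 2 (1906) and 1 without wild-type replicate 3. With the replicate number as a block it was 0 (2413 at an unadjusted p under 0.05); the block changed no call of a monoamine gene, with adjusted p of 0.432 for Tph2 and for Maoa.

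Of 151 differences of the 8 tested monoamine genes over these alternatives 137 kept their sign and 14 reversed. Th and Maoa kept it in all 19. Tph2 kept it in the 18 in which it was tested, and these are among the 137. It passed the filter only through the knock-in arrays, so its constant sign is no support for a difference. With normexp its difference was 0.002. Dbh was -0.076 and Slc6a3 -0.23 with normexp. Slc18a2 was -0.35 with slide as a fixed block and with slide 1 only, which share their comparison with wild-type replicate 3. Leaving out each array in turn gave -0.21 to 0.38 for Dbh, -0.18 to 0.51 for Ddc, -0.30 to 0.53 for Slc6a3, -0.0036 to 0.067 for Maob, 0.003 to 0.88 for Slc18a2, 0.01 to 0.30 for Th, 0.79 to 1.14 for Tph2 and -0.51 to -0.32 for Maoa. The cause of these reversals was not tested. Tph2 had no value under the filter for all 6 arrays.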

Other observations

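Gene lists of other cell types of the brain were measured on the same arrays, and 0 of their genes passed the adjusted threshold in limma. All 11 nerve-terminal genes, 9 astrocyte genes and 7 oligodendrocyte genes were tested. Gfap, the intermediate filament of astrocytes, had scaled log2 signals of 2.08, 2.32 and 1.73 in knock-in, against 1.67, 0.80 and 1.41 in wild type, a difference of 0.75 without overlap (SE 0.26, limma adjusted p = 0.433). The astrocyte list went both ways, with 5 genes higher and 4 lower in knock-in and a median of 0.04: Aldoc was 0.22 lower without overlap (SE 0.10, adjusted p = 0.469), and Slc1a2 and Aqp4 differed by -0.33 and -0.18 with overlap. The endothelial tight-junction gene Cldn5 was 0.99 lower in knock-in without overlap (SE 0.30, adjusted p = 0.414), while Abcb1a, Pecam1 and Slco1a4 of the same list differed by 0.42, 0.15 and -0.04 with overlap, and the list median was -0.09. The hypothalamic neuropeptides Hcrt and Agrp were 0.48 (SE 0.13) and 0.57 (SE 0.18) lower without overlap, with adjusted p of 0.413 and 0.419. They are the 2 of smallest p in a list that went both ways. Of its 9 tested genes 3 were higher and 6 lower in knock-in, with a median of -0.14. Pomc and Oxt, 0.25 and 0.15 lower, also had no overlap, so 4 of the 9 lay below, beside 12.5% of all genes. For Oxt the nearest arrays of the groups were at -3.6078 in knock-in and -3.6075 in wild type. Crh and Cartpt differed by 0.27 and 0.18 with overlap. The 7 oligodendrocyte genes were all higher in knock-in, with a median difference of 0.27 beside -0.05 over all genes. The one of smallest p, Mobp, differed by 0.50 (SE 0.18, adjusted p = 0.437) with overlap. Genes of 1 cell type are not independent observations. Their mean deviated by 0.18, 0.38 and -0.06 in knock-in, and by 0.12, -0.43 and -0.19 in wild type. The groups thus overlapped (exact permutation p of 0.2).

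Maoa, the monoamine gene whose knock-in arrays all lay below, had an r of -0.83 over the 6 arrays with the mean of 8 microglia genes (rho -0.83, exact permutation p of 0.0389 and 0.0583, adjusted p of 0.539 and 0.712 over the 168 pairs of a member and a list). The microglia mean deviated by 0.04, 0.10 and -0.002 in knock-in, and by 0.02, -0.11 and -0.04 in wild type. Without the 2 arrays farthest from the Maoa median, r over the 4 left was -0.93. Other lists reached similar values over these 4 arrays: -0.99 for astrocyte, -0.94 for oligodendrocyte and 0.96 for 2 serotonin-neuron genes. Over all 6 arrays r with the oligodendrocyte mean was -0.76. The microglia genes went both ways, with 6 higher and 2 lower in knock-in.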
